A study of Homo sapiens with 7 samples.

Results

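The microRNAs miR-183, miR-96 and miR-182 are made from one cluster of hairpins on the long arm of chromosome 7, and their levels were compared between oligometastatic and polymetastatic derivatives of one human tumor cell line. The 3 members are the assays of these names among the 377 human microRNAs measured on each TaqMan Human MicroRNA Array A card, and all 3 were found on all 7 cards. MicroRNA was measured by quantitative PCR in 3 oligometastatic lines of the L1-R2 group, named 4T, 3T and 8T, and in 4 polymetastatic lines of the L1Mic-R2 group, named 2T, 3T, 7T and 8T, with 1 card per line and no repeat of any card. Both groups derive from MDA-MB-435-GFP, an established line that carries green fluorescent protein and is now widely regarded as melanoma in origin. Cells were passed through the lungs of athymic female mice after tail vein injection. The L1-R2 lines were grown from lungs of animals that received cells of a lung macrometastasis (L1-R1), and the L1Mic-R2 lines from lungs of animals that received cells of the macrometastasis-free part of the same lung (L1Mic-R1). Each line came from a distinct animal and all 7 were selected with G418, but both groups go back to 1 lung of 1 animal, so that the spread between lines is not the spread between independent tumors.

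The miR-183 cluster is transcribed as one primary transcript, from which each hairpin is cut out separately. It is best known from sensory organs such as the inner ear and the retina, where changes in the seed of miR-96 cause inherited hearing loss. In melanoma, miR-182 is known as a repressor of the transcription factors FOXO3 and MITF that favors invasion. A microRNA finds its target messages mainly through its seed, bases 2 to 8 counted from the 5′ end, and the 3 members are shown here because their seeds are alike without being the same. The mature sequences, credited to RefSeq on GRCh38.p14 and written 5′ to 3′, have the seed in capitals.
miR-183: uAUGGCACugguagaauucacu
miR-96: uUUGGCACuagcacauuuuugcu
miR-182: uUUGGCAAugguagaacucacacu
All 3 lie on the minus strand, miR-183 at chr7:129774967-129774988, miR-96 at chr7:129774739-129774761 and miR-182 at chr7:129770447-129770470. The cluster thus spans 4542 bases, with 205 bases between miR-183 and miR-96 and 4268 bases between miR-96 and miR-182. The RefSeq genes that overlap this span are the 3 microRNA genes themselves, and the nearest coding genes are NRF1 and UBE2H. MiR-96 and miR-182 share bases 2 to 7, and their seeds match at 6 of 7 bases. The seed of miR-183 matches that of miR-96 at 6 of 7 bases and that of miR-182 at 5 of 7. Over their whole length miR-183 and miR-182 are the closest pair, with 18 of 22 positions the same from the 5′ end, against 13 of 22 for miR-183 and miR-96. In the RefSeq table, 1 further mature human microRNA, miR-1271-5p, shares bases 2 to 7 with miR-96 and miR-182, and no assay of that name was on the card.

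The values are threshold cycles (Ct), which count how many rounds of PCR a well needed before its fluorescence passed a fixed level. A lower Ct stands for more RNA, and 1 cycle is about 1 unit on the log2 scale. A lower level in a line can mean less RNA in each cell or fewer cells that hold it, which cannot be told apart. An Undetermined well has a Ct of 40 in the files, and a microRNA was called detected at a raw Ct below 38. Between 172 and 184 microRNAs were detected in the L1-R2 lines and between 160 and 172 in the L1Mic-R2 lines, and the mean raw Ct of all microRNAs was 35.53 ± 0.10 (SD, n = 3) and 35.78 ± 0.16 (SD, n = 4). Each card carries a number, which was 1, 2 or 3 for L1-R2 and between 4 and 7 for L1Mic-R2. It is not stated whether this number gives the order in which the cards were run. If it does, an effect of that order could not be separated from the difference between groups. Of 9 melanocyte and melanoma microRNAs on the card 8 were detected in at least 3 lines, and miR-146a, miR-204 and miR-508-3p had the lowest Ct. Their summed level, expressed as a Ct, ran from 18.30 to 19.08 in L1-R2 and from 19.31 to 20.08 in L1Mic-R2. That sum is nearly miR-146a alone, whose raw Ct was 18.32 to 19.11 and 19.33 to 20.10. After the normalization used for the tests miR-146a had a mean of 19.23 in both groups and a log2 fold change of 0.00. That normalization gives the same value to a microRNA of the same rank on every card. The 0.00 therefore cannot show whether the level of miR-146a differed. In the limma test described further on, which 4.97% of all microRNAs tested passed, 1 of the 8 melanocyte and melanoma microRNAs tested passed, miR-509-3-5p (log2 fold change -2.71, adjusted p = 0.0392). None of the 8 had a positive log2 fold change, and their median was -0.89, against 0.06 for all microRNAs tested. The largest was that of miR-211, -6.57 (SE 2.97, adjusted p = 0.267 from limma). Its raw Ct was 27.49 to 30.56 in L1-R2 and 29 to 40 in L1Mic-R2. Of 7 further melanoma microRNAs tested 1 passed, miR-221 (log2 fold change 2.41, adjusted p = 0.0392 from limma). The median log2 fold change of these 7 was -0.3, with both signs among them. MiR-509-3-5p, miR-211 and miR-221 are named after their values were seen. The 9 calls over all microRNAs became 0 relative to RNU44 and RNU48, without a detection filter, by the methods' t-test and with the replicate number as a block. They also became 0 without L1-R2 line 3T, line 8T of L1-R2 or line 2T of L1Mic-R2. The test held 4 of 8 epithelial, 2 of 6 blood, 1 of 5 fibroblast and smooth muscle and 3 of 4 sensory or neural microRNAs, of which none passed. The 4 epithelial ones had a median log2 fold change of -1.33. The epithelial miR-200b and miR-200c were detected in all 7 lines (raw Ct from 32.57 and 30.10), and miR-141 and miR-205 in no line. Of the sensory or neural microRNAs, miR-9 was detected in all 7 lines (27.26 to 28.13), miR-128 in 6, miR-184 in 3 and miR-124 in 1. The blood microRNAs miR-451 and miR-142-5p and the fibroblast microRNAs miR-143, miR-145, miR-199a-5p and miR-214 were Undetermined in all 7 lines. Of the other blood microRNAs, miR-150 was detected in 5 lines (raw Ct from 33.09), miR-223 in 4 (from 35.35), miR-142-3p in 2 and miR-486-5p in 1, and the fibroblast microRNA miR-199a-3p was detected in 3 (from 35.88). The endothelial miR-126 had a raw Ct of 32.46 to 35.06 in L1-R2 and of 28.71 to 32.41 in L1Mic-R2. MiR-126 was tested too and did not pass (log2 fold change 3.44, SE 0.98, adjusted p = 0.104 from limma). The part of these markers in the results on the cluster was not tested.

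MiR-182 was the earliest of the 3 assays to cross the threshold, miR-183 followed, and miR-96 was at the limit of detection. The L1-R2 lines 4T, 3T and 8T had a raw Ct of miR-182 of 28.77, 29.72 and 29.32, and those of L1Mic-R2 (2T, 3T, 7T and 8T) of 29.98, 29.53, 29.58 and 29.85, an order of lines that is kept in what follows. L1-R2 line 4T had the most miR-182 and L1Mic-R2 line 2T the least, and L1-R2 line 3T lay among the L1Mic-R2 lines, so that the groups overlapped. In the direction of less RNA in L1Mic-R2, the raw Ct of 13.8% of all microRNAs tested had groups that did not. The raw Ct of miR-183 was 33.64, 32.88 and 33.10 in L1-R2. In L1Mic-R2 it was 33.77, 33.50, 33.95 and 33.62. Here L1-R2 line 3T had the most and line 4T lay among the L1Mic-R2 lines, so that the exception in L1-R2 was a different line for each microRNA. Over the 7 lines the raw Ct spanned 1.21 cycles for miR-182 and 1.07 for miR-183. Among the 377 microRNAs of a card, counted from the lowest Ct, miR-182 ranked between 65 and 78 and miR-183 between 112 and 128. Different assays can amplify with different efficiency, so that this order of the members is an order of Ct and not of molecules.

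**Figure D1:**
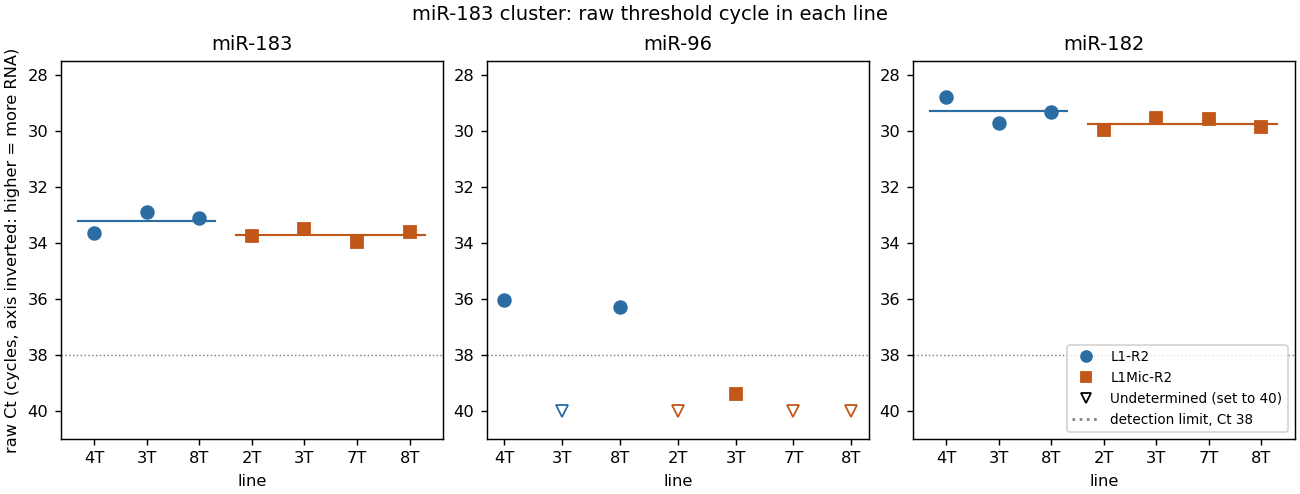
Raw Ct (cycles, inverted axis) of miR-183, miR-96 and miR-182 in each of the 3 L1-R2 (circles) and 4 L1Mic-R2 lines (squares), with open triangles for Undetermined wells, horizontal bars for group means of miR-183 and miR-182, and the detection limit of 38 as a dotted line. MiR-182 lies between 28.77 and 29.98 and miR-183 between 32.88 and 33.95 in all 7 lines, and miR-96 passes the limit in 2 L1-R2 lines.

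MiR-96 was detected in 2 of 3 L1-R2 lines and in 0 of 4 L1Mic-R2 lines. Its raw Ct was 36.05 in L1-R2 line 4T and 36.29 in line 8T, and line 3T was Undetermined. In L1Mic-R2, line 3T crossed the threshold at 39.40 and lines 2T, 7T and 8T were Undetermined. The difference in the number of lines with detection did not pass Fisher's exact two-sided test (p = 0.143), and each value rests on a single well late in the PCR. Of all 377 microRNAs, 9 (2.39%) were detected in at least 2 L1-R2 lines and in 0 L1Mic-R2 lines, and 4 (1.06%) showed the opposite pattern. The 2 lines with miR-96 were those with the most microRNAs detected, 184 in line 4T and 177 in line 8T, and with the lowest Ct of the small control RNA RNU44, 23.67 and 24.82, against 25.29 to 25.97 in the other 5. The part of these card-wide differences in the detection of miR-96 was not tested. Relative to miR-182 on the same card, miR-96 was 7.28 cycles later in L1-R2 line 4T and 6.97 later in line 8T. In L1-R2 line 3T, where it was Undetermined, the gap was at least 10.28 cycles, and in the Undetermined L1Mic-R2 lines at least 10.02. In L1Mic-R2 line 3T, with its Ct above the detection limit, the gap was 9.87 cycles. For miR-96, L1-R2 line 3T thus resembled the L1Mic-R2 lines.

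The groups were compared after quantile normalization, which gives each card the same distribution of Ct and was the normalization used in the study. The test was limma, run on 40 minus the normalized Ct of the 181 microRNAs that passed the detection limit in 3 or more lines. A negative log2 fold change stands for less RNA in L1Mic-R2. Neither tested member of the cluster passed an adjusted p under 0.05 (0 of 2, Benjamini-Hochberg over all 181), where 4.97% of all microRNAs tested did so, and 19.3% passed an unadjusted p under 0.05, which neither member did. MiR-96 was detected in too few lines to enter. The exact permutation tests given for single microRNAs are two-sided and can reach p = 0.0286 at the lowest.

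MiR-182 had a normalized Ct of 28.99, 29.46 and 29.55 in L1-R2, and of 30.00, 29.66, 29.86 and 29.58 in L1Mic-R2. The means were 29.33 ± 0.30 (SD, n = 3) and 29.78 ± 0.19 (SD, n = 4), and every L1-R2 line lay below every L1Mic-R2 line, by 0.04 cycles between the closest lines, which were 8T in both groups. Of all microRNAs tested, 10.5% had groups apart in this direction. The fitted log2 difference was -0.45 (SE 0.21, adjusted p = 0.271 from limma), and -0.26 without L1-R2 line 4T. It corresponds to a level in L1Mic-R2 of 0.734 times that in L1-R2 with a 95% interval from 0.520 to 1.04. The exact permutation test gave p = 0.0571. MiR-183 had a normalized Ct of 33.73, 33.39 and 33.62 in the L1-R2 lines, and of 33.62, 33.48, 34.19 and 32.91 in the L1Mic-R2 lines. The means were 33.58 ± 0.17 (SD, n = 3) and 33.55 ± 0.52 (SD, n = 4), with L1Mic-R2 lines 8T and 7T at the 2 ends and the L1-R2 lines between them. Its log2 difference was 0.03 (SE 0.31, adjusted p = 0.951 from limma), or 1.02-fold with a 95% interval from 0.601 to 1.73. For miR-96, with Undetermined wells at 40, the normalized means were 37.68 ± 2.02 (SD, n = 3) and 39.71 ± 0.58 (SD, n = 4), and the difference did not pass the exact permutation test (p = 0.143). MiR-182 varied less within the groups than most microRNAs, with a pooled SD of 0.24 against a median of 0.53 over the 181 tested, and that of miR-183 was 0.42. Of the 181, 135 were detected in all 7 lines, and a Ct of 40 for Undetermined wells can widen the SD of the rest.

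**Figure D2:**
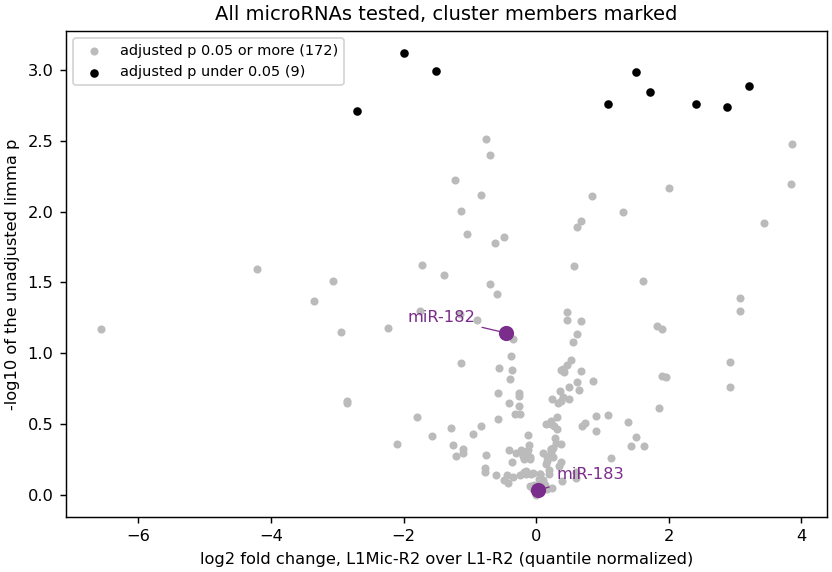
Log2 fold change, L1Mic-R2 relative to L1-R2 (horizontal), against −log10 of the unadjusted limma p (vertical) for the 181 microRNAs tested, with the 9 at an adjusted p under 0.05 in black and both tested members of the cluster in purple. MiR-182 lies at -0.45 and miR-183 at 0.03, both below the black points.

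The direction of both members depended on the scale. Without normalization the log2 fold change was -0.50 (SE 0.26) for miR-183 and -0.46 (SE 0.29) for miR-182, where the median of all microRNAs tested was -0.25 and 60.2% lay below 0. With quantile normalization 45.9% lay below 0. Normalized to U6 they were -0.45 and -0.41, against a median of -0.19. Normalized to the mean of RNU44 and RNU48 both turned positive, 0.30 for miR-183 and 0.34 for miR-182, against a median of 0.56. Relative to the mean of the 135 microRNAs found in every line they were -0.27 and -0.23, against -0.01. Relative to the median of all microRNAs, miR-183 was thus at -0.26 and miR-182 at -0.22 on each of these 4 scales, which differ by 1 constant per card. Quantile normalization, which moves each card by a different amount at each Ct, gave -0.03 and -0.50 in their place. It lowered the Ct of miR-183 in L1Mic-R2 line 8T from 33.62 to 32.91 and raised that of L1-R2 line 3T from 32.88 to 33.39.

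**Figure D3:**
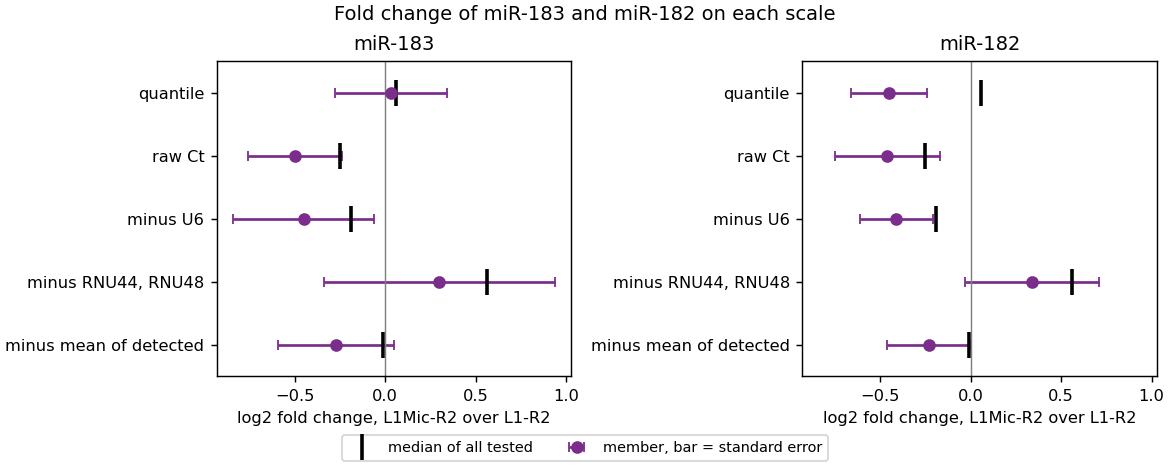
Log2 fold change, L1Mic-R2 relative to L1-R2, for miR-183 and miR-182 (points, bars are standard errors from limma) on 5 scales, with the median of all microRNAs tested as a black mark. On the 4 scales other than quantile miR-183 lies at -0.26 and miR-182 at -0.22 relative to that mark, and the mark itself moves from -0.25 for raw Ct to 0.56 with RNU44 and RNU48.

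Since 2 assays of one card share its RNA, their difference does not depend on the level of the card. The raw Ct of miR-183 exceeded that of miR-182 by 4.87, 3.16 and 3.79 cycles in L1-R2, and by 3.79, 3.97, 4.37 and 3.77 in L1Mic-R2. The L1-R2 lines thus held both the largest and the smallest gap, which differ by 1.70 cycles, or 3.26-fold in the ratio of the members, and the L1Mic-R2 lines lay between them. The means were 3.94 ± 0.86 (SD, n = 3) and 3.98 ± 0.28 (SD, n = 4), and their difference of 0.04 was below the spread of either group (exact two-sided permutation test, p = 0.914). After quantile normalization the means were 4.25 ± 0.43 (SD, n = 3) and 3.77 ± 0.42 (SD, n = 4), and the difference of -0.47 again did not pass (exact two-sided permutation test, p = 0.229). The other 2 differences within the cluster involve miR-96 and were not tested, since that assay was Undetermined in 4 lines.

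**Figure D4:**
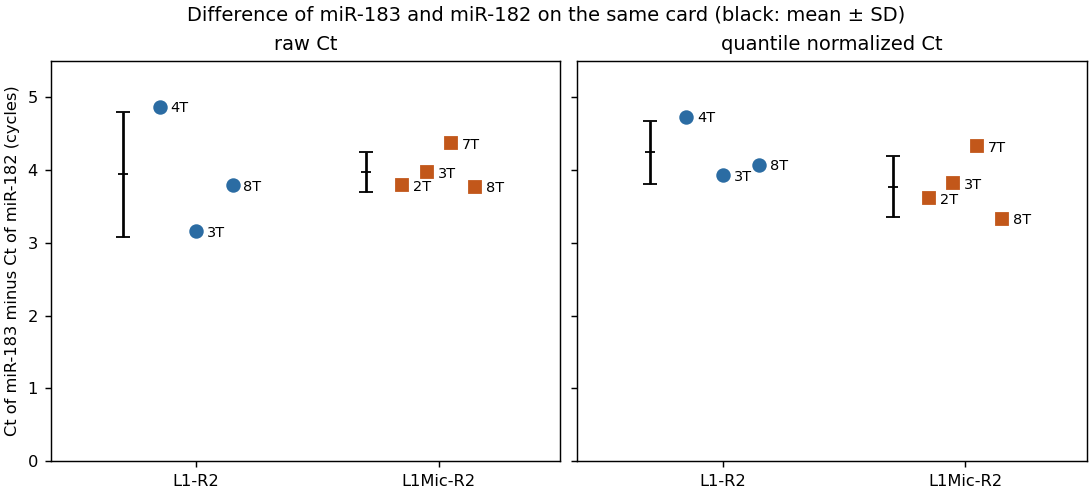
Ct of miR-183 minus Ct of miR-182 on the same card (cycles) for the 3 L1-R2 and 4 L1Mic-R2 lines, from raw Ct (left) and after quantile normalization (right), with group mean ± SD in black. In the raw values L1-R2 lines 4T (4.87) and 3T (3.16) lie outside the range of the L1Mic-R2 lines.

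The correlation between miR-183 and miR-182 over the lines depended on the scale. Their normalized Ct had a Pearson r of 0.15 (exact permutation p = 0.754) and a Spearman rho of 0.14 (exact permutation p = 0.757) over the 7 lines. Without L1Mic-R2 lines 8T and 7T, the farthest in miR-183, r was -0.32. Leaving out 1 line moved r from -0.19 (without L1Mic-R2 line 7T) to 0.53 (without line 4T of L1-R2). Relative to RNU44 and RNU48 r was 0.90 (exact permutation p = 0.0149), but there the same control mean is subtracted from both microRNAs. RNU44 and RNU48 spanned 2.29 and 2.16 cycles over the lines, against 1.07 for raw miR-183 and 1.21 for raw miR-182. A shared subtracted value tends to raise r, and the permutation does not allow for it, so this r does not show a relation of the members. After quantile normalization the r of the deviations of miR-183 and miR-182 from the group means was 0.26. The groups of 3 and 4 lines are too small for a value within each. On raw Ct r was 0.05 over the 7 lines (exact permutation p = 0.924), and -0.71 for the deviations. The relation of miR-183 to miR-182 was the 1 of 3 in the cluster that could be computed. Of 133 microRNAs detected in all 7 lines with varying values, miR-183 ranked 53rd in likeness to miR-182. The 3 most like miR-182 were miR-660 (r = 0.94), let-7g (0.90) and miR-582-5p (0.89), and the least like it was miR-210 (-0.95), a microRNA induced by low oxygen. Those most like miR-183 were miR-455-5p (0.79), miR-92a (0.75) and miR-27a (0.72), and the least like it was miR-628-5p (-0.89). These r values are descriptions over 7 lines that share cards and normalization. On raw Ct, r was 0.96 for miR-182 and miR-660 and 0.84 for miR-183 and miR-455-5p, but 0.15 for miR-183 and miR-27a.

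**Figure D5:**
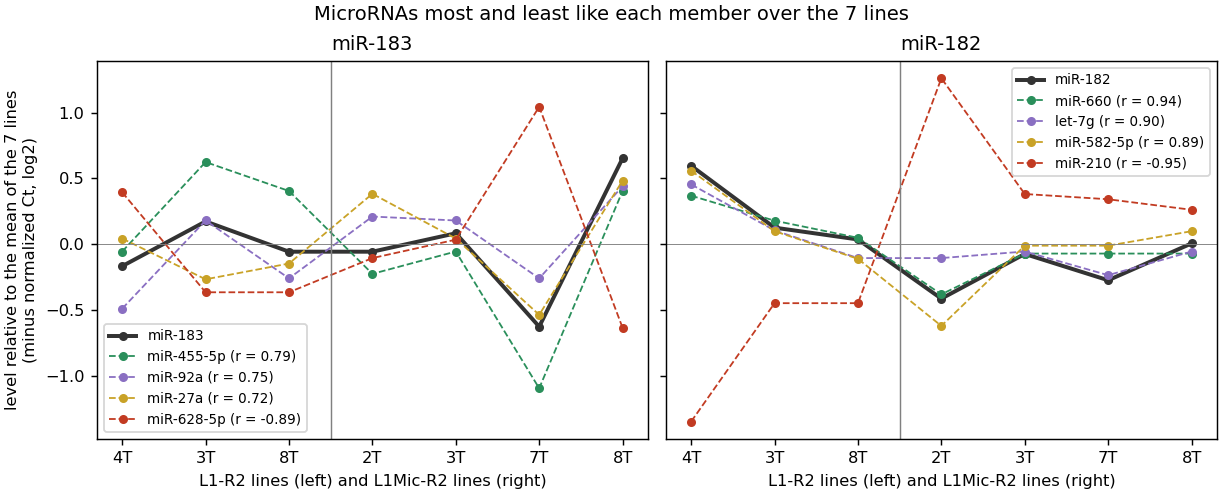
Level of each microRNA relative to its mean over the 7 lines (minus normalized Ct, log2 scale) for miR-183 (left) and miR-182 (right) with the 3 microRNAs most like each and the 1 least like it by Pearson r. MiR-182 and miR-660 run together (r = 0.94), and miR-210 runs opposite (-0.95).

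The raw Ct of miR-182 followed that of RNU44, a small nucleolar RNA that serves as a control on the card. RNU44 was at 23.67, 25.59 and 24.82 in L1-R2, and at 25.75, 25.30, 25.29 and 25.97 in L1Mic-R2. Both RNAs were thus earliest in L1-R2 line 4T and next in line 8T, and L1-R2 line 3T lay among the L1Mic-R2 lines in both. Pearson's r was 0.98 (exact permutation p = 0.00119, 0.00714 after Benjamini-Hochberg adjustment over the 6 pairs of miR-183 or miR-182 with U6, RNU44 or RNU48). Spearman's rho was 0.93 (exact permutation p = 0.00675, adjusted p = 0.0405). Without line 4T of L1-R2 and line 8T of L1Mic-R2, the farthest in RNU44, r was 0.96, and for deviations from the group means it was 0.97. MiR-182 had the highest r with RNU44 of the 135 microRNAs detected in all 7 lines, whose median was 0.51. With RNU48 the r of miR-182 was 0.91 (exact permutation p = 0.00952, adjusted p = 0.0286) and was 0.63 without the same 2 lines, and with U6 it was 0.70 (exact permutation p = 0.0780, adjusted p = 0.156). MiR-183 had an r of -0.42 with U6 (exact permutation p = 0.344), of -0.01 with RNU44 (exact permutation p = 0.984) and of -0.09 with RNU48 (exact permutation p = 0.850). The relation of miR-182 to RNU44 was examined after the values were seen, and the adjustment over 6 pairs does not allow for that choice. Raw Ct values of one card also share its RNA, which the permutation does not allow for.

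Of the other microRNAs with a hairpin within 10 Mb of miR-183, 4 had an assay on the card. They were miR-335, miR-29a, miR-29b and miR-490-3p, and 2 of them were tested. MiR-29a, whose targets include collagen genes, had a normalized Ct of 21.85 ± 0.43 (SD, n = 3) for L1-R2 and 22.24 ± 0.15 (SD, n = 4) for L1Mic-R2, which differ by -0.39 in log2 level (SE 0.24, adjusted p = 0.425 from limma). MiR-29b, made from 2 hairpins of which 1 lies elsewhere, was at 31.22 ± 0.21 (SD, n = 3) and 31.47 ± 0.25 (SD, n = 4), a log2 difference of -0.25 (SE 0.20, adjusted p = 0.566 from limma). None of the 2 passed the adjusted threshold, which 4.97% of all microRNAs tested passed. Their median log2 fold change was -0.32, against 0.06 for all microRNAs tested, and turned to 0.32 relative to RNU44 and RNU48, where the median of all was 0.56. MiR-335, known as a suppressor of metastasis in breast cancer, was detected in L1-R2 line 3T alone, at a raw Ct of 36.51, and miR-490-3p was Undetermined in all 7 lines.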

How the data were processed

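MicroRNA was measured on TaqMan Array A cards, from 30 ng of total RNA per the labels, in 3 L1-R2 and 4 L1Mic-R2 lines. The authors deposited 1 Ct per well and an average Ct per assay, a log2 scale in cycles, imported with SDS RQ Manager at a threshold of 0.3. These are values before normalization, with 40 for Undetermined wells. The SYBR dye and mammary injection in the labels differ from the study's methods, which were followed. File names exchange L1-R2 lines 3T and 4T, and the labels were used.

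Ct values of 381 assays were quantile normalized and tested with limma 3.58.1 (lmFit, eBayes) in R 4.3.3, after a filter at a raw Ct below 38 in at least 3 lines. Single values were tested by exact permutation. Mature sequences were matched by name, 3 of 3, taking the 5p arm. The functions were tested on simulated data. The neighbours and likeness were named by fixed rules, and the marker lists were fixed. Single markers were also named outside the rule set for them, which took the detected ones of lowest Ct. Members and lists were chosen with earlier results of these data known. The alternatives were other normalizations, limits on Ct, detection filters, fits, the replicate number as a block, and leaving out single lines. With 1 card per line, errors hold both biological and technical spread, and the number of cards limits the precision.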

Additional observations from a re-analysis of the deposited data

Results flagged for a closer look

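In the L1Mic-R2 lines, miR-96 and miR-29a each had 1 line apart from the other 3, with a gap to range ratio of 1 for both normalized Ct values. Of the 8 results examined in this way, chance gives about 1 in 20 where no values are tied. With 3 of 4 values the same the ratio is always 1, so that this rate does not apply to either flag. For miR-96 it was line 3T, the single L1Mic-R2 line with any Ct (38.85 normalized, 39.40 raw), while the other 3 were Undetermined and so share one value. For miR-29a it was line 8T, at 22.02 against 22.32 in the other 3, which share one rank and so one normalized value, while their raw Ct was 22.20, 22.05 and 22.36 and that of line 8T, 22.45, was the highest.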

How the results depend on the processing

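Neither miR-183 nor miR-182 passed an adjusted p under 0.05 under the 19 alternatives run (limma, or the methods' t-test), and miR-96 entered such a test in 1 of them, without a detection filter, and did not pass. The log2 fold change of miR-183 turned negative on the raw scale (-0.50), relative to U6 (-0.45) and relative to the mean detected microRNA (-0.27), and ran from -0.16 without L1Mic-R2 line 8T to 0.25 without line 7T. That of miR-182 turned positive with RNU44 and RNU48 (0.34), stayed negative in its other 18 alternatives and ran from -0.53 to -0.26 with each line left out, -0.26 being without L1-R2 line 4T. That of miR-96 stayed negative, from -3.09 without L1-R2 line 3T to -1.36 without line 8T, and was -0.99 with Ct limited to 38. The miR-183 minus miR-182 difference of -0.47 became 0.04 for raw Ct and ran from -0.68 to -0.20 without 1 line. Their correlation was 0.90 with RNU44 and RNU48 (exact permutation p = 0.0149), where both share the subtracted controls and the permutation does not allow for that. It was -0.16 relative to the mean detected microRNA, and ran from -0.19 without L1Mic-R2 line 7T to 0.53 without L1-R2 line 4T. The median of the neighbours was 0.32 with RNU44 and RNU48 and ran from -0.44 to -0.21 without 1 line.

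Over all microRNAs the 9 calls became 14 when detected in all 7 lines, 21 with trend and robust options, and 0 in 5 alternatives. Those were, with the number at an unadjusted p under 0.05 in brackets, RNU44 and RNU48 (37), no filter (42), the methods' t-test (35) and the replicate block (19 by labels, 27 by file names). With each line left out the calls ran from 0 to 4 (28 to 39 unadjusted), being 0 without L1-R2 line 3T, L1-R2 line 8T or L1Mic-R2 line 2T, and 1 without L1Mic-R2 line 3T. With the replicate block miR-183 was at 0.31 and miR-182 at -0.12 by the labels and at 0.47 and -0.35 by the file names, in a fit with 1 residual degree of freedom. Same-numbered lines 3T and 8T had correlations of -0.04 and -0.20 in their deviations. With 1 card per line these values cannot decide whether a shared number stands for a pairing. MiR-96 gave no value with Ct limited to 35 or detection in all 7 lines, and its differences and correlations were not run. The cause of these shifts was not tested.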
